A study of Mus musculus with 21 samples.

Results

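Kupffer cell and macrophage marker genes were followed in liver RNA from mice that ate a high-fat diet with or without quercetin. The markers were 10 genes, Emr1, Clec4f, Cd5l, Marco, Vsig4, Timd4, Cd68, Csf1r, Ccl2 and Itgax. They were found by name among the non-control spots of the arrays, which gave 14 probes of 55681, for 10 of the 22137 genes named on the array. Emr1 and Cd68 had 2 probes each, Csf1r had 3, and each of the other genes had 1 probe. The Ccl2 probe was printed in 10 spots, which were averaged. All 14 probes were well above background on all 21 arrays.

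The livers came from adult male C57BL/6J mice, 24 in the study, each on its own 2-colour array with the liver's cRNA in Cy5 and an equimolar pool of all livers in Cy3. The 10 HF-Q mice analysed here received a high-fat diet with 0.33% (w/w) quercetin, a plant flavonol, for 12 weeks, and the 11 HF mice received the high-fat diet alone for as long. Both groups had first eaten a normal-fat diet for 3 weeks, and both were fasted for 2 to 4 hours before the livers were taken. The arrays of 3 mice had been excluded by the authors for uneven hybridisation. No group kept on the normal-fat diet was analysed here, so every value below is from a mouse on a high-fat diet. Whole liver was used, and 7 of the 8 hepatocyte markers listed were measured above background, among them Apoa1 and Ttr.

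Kupffer cells are the macrophages that live in the liver sinusoids, where they take up bacteria, dying cells and particles from the portal blood. They maintain themselves locally for the most part, whereas monocytes from the blood enter an injured or fatty liver along chemokine gradients and can become macrophages there. The resident cells of the mouse are known by surface receptors for uptake, and incoming cells by chemokine signals and integrins.

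The part of each transcript that an array probe reads decides what is measured, so the probes of the resident and recruited genes are shown here, in lower case and 5′ to 3′. Positions follow the array files and mouse build mm9. The Clec4f probe is given whole (60 bases) and the other probes by their first 30 bases, with the position of the whole probe.
Emr1 A_55_P2144386 (chr17:57622868-57622927, plus strand): ggtgttccagaaattctcatttaataccca
Emr1 A_55_P2018934 (chr17:57620350-57620409, plus strand): atgaatataagaaactcctcaccaggaaga
Clec4f (chr6:83595281-83595339, minus strand): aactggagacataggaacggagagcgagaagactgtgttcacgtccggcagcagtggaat
Cd5l (chr3:87174823-87174882, plus strand): atggtagagacttgaggagttgggacctcg
Marco (chr1:122371115-122371134, minus strand): gagcccgagaggtcatcagtgtgtccccag
Vsig4 (chrX:93442598-93442657, minus strand): ggattactcctctttctctagggccagatg
Timd4 (chr11:46657173-46657232, plus strand): acttcttttcacattcaagtttctttaaag
Ccl2 (chr11:81850650-81850709, plus strand): tgtaggagtgaccagtgtgacagtgaacta
Itgax (chr7:135294052-135294111, plus strand): tcccatctacttttgcaacgttggaattga
The Marco position in the array files spans 20 bases and the Clec4f position 59, fewer than the probes' 60, and both are given as the files have them. Exon and UTR annotation of mm9 was not used here.

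Quercetin in the diet went with no detectable difference in any of the 14 macrophage marker probes. Of all 26289 probes kept, limma called 0 at an adjusted p under 0.05, which is 0% of them, and 1486 (5.65%) had an unadjusted p under 0.05, 762 higher (2.9%) and 724 lower (2.75%) in HF-Q livers. None of the 14 marker probes had an unadjusted p under 0.05, and their limma p-values adjusted over all kept probes lay between 0.908 and 0.999. The difference, HF-Q minus HF on the log2 scale, was positive for 5 probes and negative for 9, with a median of -0.0155 against -0.00343 over all kept probes. Without HF 6 and HF 8, the HF livers in which most resident genes were highest, 10 probes were positive and 4 negative, with a median of 0.046 against -0.0037 over all kept probes, and 0 of all kept probes (0%) were called by limma. The unadjusted p was under 0.05 for 1 of the 14 probes, of Emr1, against 1402 of all 26289 (5.33%), which is near the background. HF 6 and HF 8 were chosen for high values of these same markers. Leaving them out therefore raises most marker differences by construction, and the direction of the shift is not a result. The 2 groups overlapped for 14 of 14 probes, and for 8 of them the whole HF-Q range lay inside the HF range. Neither count was taken over all kept probes, so neither is read as a trait of the markers. These are values of bulk liver, in which fewer macrophages and less RNA per macrophage cannot be told apart.

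**Figure D1:**
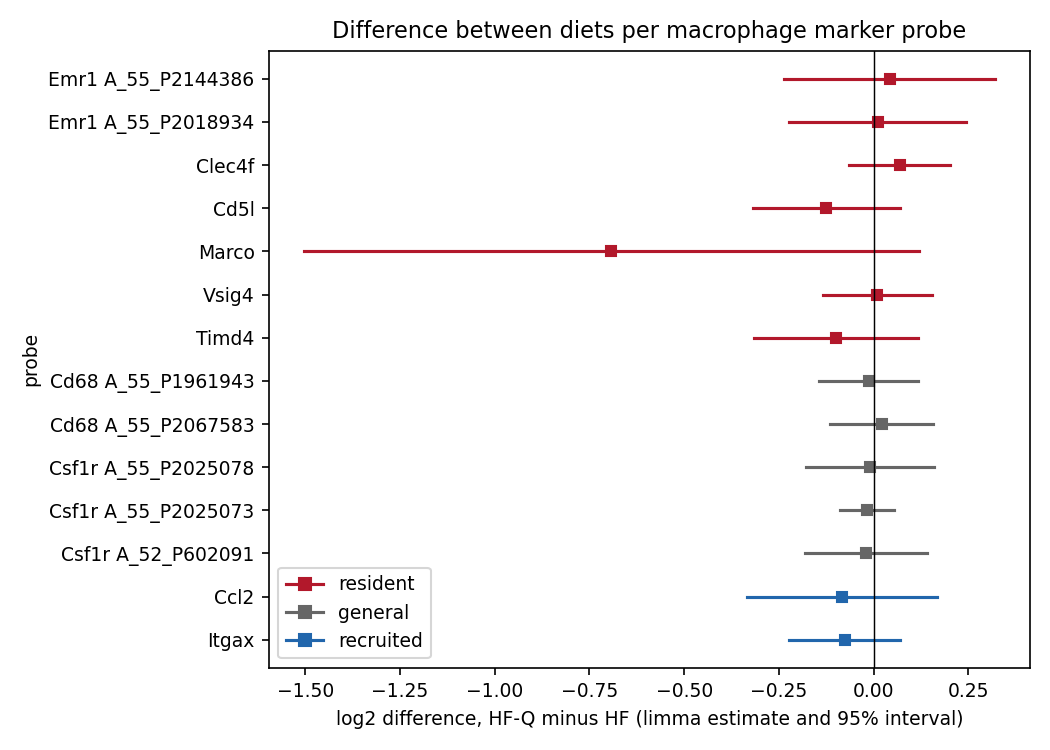
Difference between HF-Q and HF livers for each of the 14 marker probes on the log2 scale, with squares for the limma estimate and lines for its 95% interval, coloured by role. All 14 intervals span 0, and the Marco interval, from -1.50 to 0.12, is the widest.

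Among the resident genes, Marco had the widest spread and the most negative difference. Marco encodes a scavenger receptor with a collagen-like stalk that binds bacteria and particles. Its log2 ratio to the pool was -2.27 at the lowest, -0.78 at the median and -0.21 at the highest of the 10 HF-Q livers, against -1.80, -0.52 and 2.28 in the 11 HF livers. All 10 HF-Q livers were below the pool, against 8 of 11 HF livers, and the 3 HF livers above it were HF 8 at 2.28, HF 6 at 0.98 and HF 1 at 0.80. The pool was in Cy3 on every array, so dye and level cannot be told apart in a position above or below it, here and in what follows. The groups overlapped across most of their ranges. Means were -0.99 ± 0.68 in HF-Q livers and -0.30 ± 1.22 in HF livers (SD, n = 10 and 11), a log2 difference of -0.69 ± 0.39 (SE), or a ratio of 0.619 with a 95% interval of 0.353 to 1.09. With limma the unadjusted p was 0.0907 and the adjusted p 0.908, so the difference did not pass the threshold. Without HF 8 it was -0.44, and without both HF 6 and HF 8 it was -0.27. It was negative on each of the 3 slides taken alone, at -0.72, -0.65 and -0.52, and -0.62 with slide as a block. Slide 2 held HF 6 and slide 3 held HF 8, so the fits of those slides alone include them. The other HF livers on slide 3 were at -1.67, -0.93 and -0.52, and its HF-Q livers ran from -1.55 to -0.21. The slides are therefore not read as agreement apart from HF 6 and HF 8. From the highest to the lowest liver, Marco ranged 4.18-fold within HF-Q and 16.9-fold within HF. Its within-group SD of 0.999 was the 19th largest of the 26289 probes kept, where the median was 0.128.

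Cd5l encodes a secreted scavenger protein, also called AIM, that supports the survival of macrophages. Its log2 ratio was -0.69, -0.26 and -0.10 at the lowest, median and highest HF-Q liver, against -0.45, -0.24 and 0.35 in HF livers. All 10 HF-Q livers and 9 of 11 HF livers lay below the pool, with HF 6 and HF 8 above it. The log2 difference was -0.12 ± 0.094 (SE), with a 95% interval of -0.32 to 0.069 and an adjusted p of 0.972 by limma. It had the same sign on each slide (-0.23, -0.049 and -0.091) but came close to 0 without HF 6 and HF 8, at -0.017. Slide 2 held HF 6 and slide 3 held HF 8, so the fits of those slides alone include them.

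Timd4 encodes a phosphatidylserine receptor with which macrophages engulf dying cells. The lowest, median and highest log2 ratios were -0.32, -0.012 and 0.093 in HF-Q livers, and -0.28, -0.074 and 0.68 in HF livers. Most livers of both groups were close to the pool, while HF 8 at 0.68, HF 6 at 0.60 and HF 11 at 0.30 stood above every HF-Q liver. The log2 difference of -0.099 ± 0.11 (SE; limma adjusted p = 0.986) turned to 0.034 without HF 6 and HF 8.

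Clec4f, a C-type lectin that in the mouse is made by Kupffer cells and few others, had the most positive difference of the 14 probes. Its log2 ratio was -0.18, 0.054 and 0.21 at the lowest, median and highest HF-Q liver, against -0.34, -0.12 and 0.22 in HF livers. The highest livers of both groups were level, and 4 of 10 HF-Q livers lay below the pool against 7 of 11 HF livers. The difference of 0.069 ± 0.064 (SE; limma adjusted p = 0.986) corresponds to a ratio of 1.05, with a 95% interval of 0.956 to 1.15. On slide 1 alone it was 6.1e-05, on slide 2 it was 0.055 and on slide 3 it was 0.13.

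Vsig4 is the complement receptor by which Kupffer cells catch C3b-coated bacteria from the blood. Its log2 ratio ran from -0.39 to -0.065 with a median of -0.18 in HF-Q livers, and from -0.58 to 0.13 with a median of -0.22 in HF livers. Every HF-Q liver was inside the HF range. The difference was 0.0093 ± 0.070 (SE; limma adjusted p = 0.999), a ratio of 1.01 with a 95% interval of 0.911 to 1.11.

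Emr1, now named Adgre1, encodes an adhesion receptor that is widely used to mark mouse macrophages. At the brighter probe the log2 ratio was -0.36, 0.084 and 0.23 at the lowest, median and highest HF-Q liver, against -0.46, -0.15 and 1.09 in HF livers. The median was higher in HF-Q while the highest value was an HF liver, HF 8, so the groups were ordered differently by median and by maximum. The difference of the means was 0.042 ± 0.13 (SE; limma adjusted p = 0.999), with a 95% interval of -0.24 to 0.32, and became 0.21 without HF 6 and HF 8 (limma unadjusted p = 0.0113, adjusted p = 0.927). Leaving out the HF livers highest in Emr1 raises its difference by construction. The other Emr1 probe followed the first across livers (r = 0.933, n = 21, group means removed) and gave a difference of 0.011 ± 0.11.

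**Figure D2:**
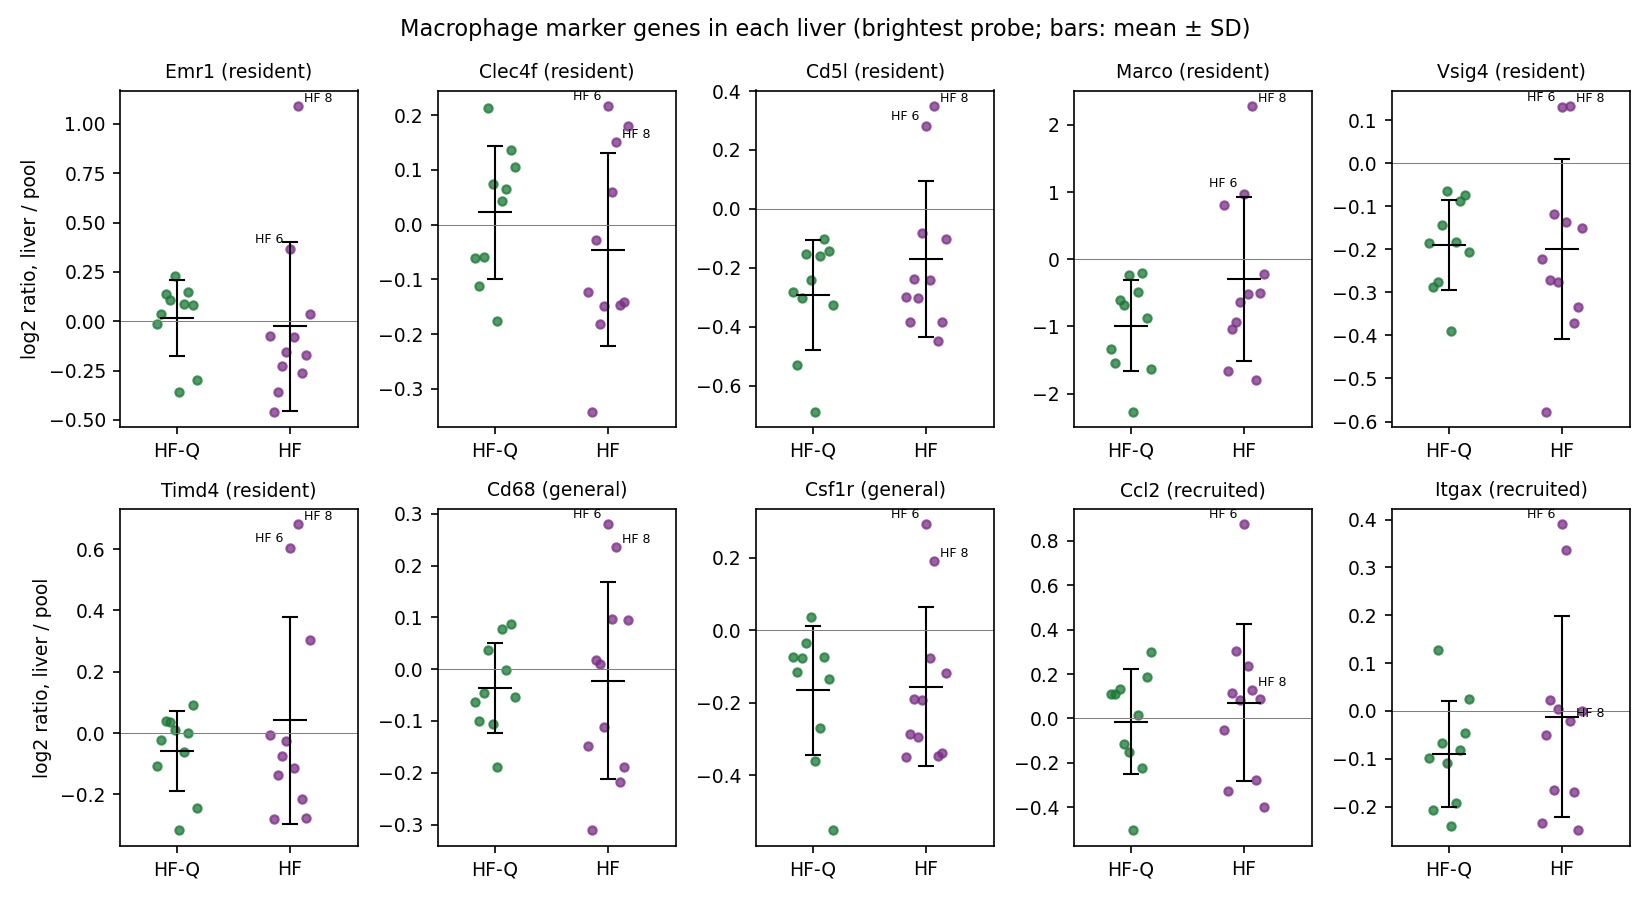
Log2 ratio of each liver to the pool for the 10 marker genes (brightest probe of each), with HF-Q livers left and HF livers right and bars for mean ± SD (n = 10 and 11). HF 8 and HF 6, labelled, are the 2 highest HF livers for Emr1, Cd5l, Marco, Vsig4, Timd4, Cd68 and Csf1r, and HF-Q and HF livers overlap for every gene.

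Markers shared by all macrophages had small differences between the diets. Cd68, a glycoprotein of lysosomes and late endosomes, had log2 ratios of -0.19, -0.050 and 0.087 at the lowest, median and highest HF-Q liver, against -0.31, 0.0090 and 0.28 in HF livers, at its brighter probe. The HF-Q livers filled the middle of the HF range. The difference was -0.013 ± 0.063 (SE), a ratio of 0.991 with a 95% interval of 0.905 to 1.08, and the second Cd68 probe gave 0.021 ± 0.066 (limma adjusted p = 0.999 for both).

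Csf1r encodes the receptor for the growth factors CSF1 and IL-34, on which macrophages depend. Its brightest probe, A_55_P2025078, had log2 ratios of -0.55, -0.095 and 0.037 at the lowest, median and highest HF-Q liver, against -0.35, -0.19 and 0.29 in HF livers, and a difference of -0.0097 ± 0.082 (SE; limma adjusted p = 0.999). On single slides the sign varied, from -0.11 on slide 1 to 0.17 on slide 2. The 3 Csf1r probes did not move together in every case. The brightest probe correlated with A_52_P602091 at r = 0.635, but with A_55_P2025073 at r = 0.188, and A_55_P2025073 had a within-group SD of 0.065, below the median probe. HF 6 was the highest HF liver at A_55_P2025078 (0.29) and the lowest at A_55_P2025073 (-0.028). Sequences of Csf1r are not shown.

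The genes tied to recruited cells had negative differences that also failed the test. Ccl2 encodes the chemokine MCP-1, which draws monocytes that carry the receptor CCR2. Its log2 ratio was -0.50, 0.063 and 0.30 at the lowest, median and highest HF-Q liver, against -0.40, 0.088 and 0.88 in HF livers. The 2 medians were close, and HF 6 at 0.88 stood apart, with HF 4 and HF-Q 10 next at 0.30 each. The difference was -0.084 ± 0.12 (SE; limma adjusted p = 0.995), with a 95% interval of -0.34 to 0.17. It was 0.095 on slide 1, -0.18 on slide 2 and -0.14 on slide 3, and 0.011 without HF 6 and HF 8.

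Itgax encodes CD11c, an integrin chain of dendritic cells and of some macrophages in fat-laden tissue. Its log2 ratio was -0.24, -0.090 and 0.13 at the lowest, median and highest HF-Q liver, against -0.25, -0.021 and 0.39 in HF livers. All HF-Q livers lay within the HF range, whose top was set by HF 6 (0.39) and HF 7 (0.34). The difference of -0.077 ± 0.071 (SE; limma adjusted p = 0.986) corresponds to a ratio of 0.948, with a 95% interval of 0.857 to 1.05. Its sign was negative on slide 1 (-0.043), slide 2 (-0.037) and slide 3 (-0.16).

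Set side by side with 1 probe per gene, the 6 resident genes had 3 positive and 3 negative differences and a median of -0.045. Both recruited genes were negative, with a median of -0.081, and both general markers were negative, with a median of -0.012. No gene of any role passed the test, and the roles were not tested against each other. On slide 1 alone the recruited median was 0.026, and on slide 2 alone the median difference of resident members was 0.0029. Without HF 8 alone the resident median was 0.00365. Without HF 6 and HF 8 the resident median was 0.059, the general median 0.064 and the recruited median -0.011. The upward direction of that shift was set by the choice of livers.

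The marker probes varied from liver to liver in a shared way, and the livers that stood out were the same for many of them. Within HF-Q, the lowest liver was HF-Q 6 for 12 of the 14 probes. Within HF, the highest liver was HF 8 for 7 probes and HF 6 for 5, and the lowest was HF 2 for 7. These counts were not taken over all kept probes, and the probes of Emr1, Cd68 and Csf1r count the same gene repeatedly. HF-Q 6 lay on slide 1, HF 6 on slide 2, and HF 8 and HF 2 on slide 3. The share of probes above background was 47.3% in HF-Q 6, 48.1% in HF 6, 47.1% in HF 8 and 48.15% in HF 2, within the range of 44.0% to 51.3% over all arrays. These livers were picked out after their values were seen, and results are given with and without HF 6 and HF 8 for that reason.

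**Figure D3:**
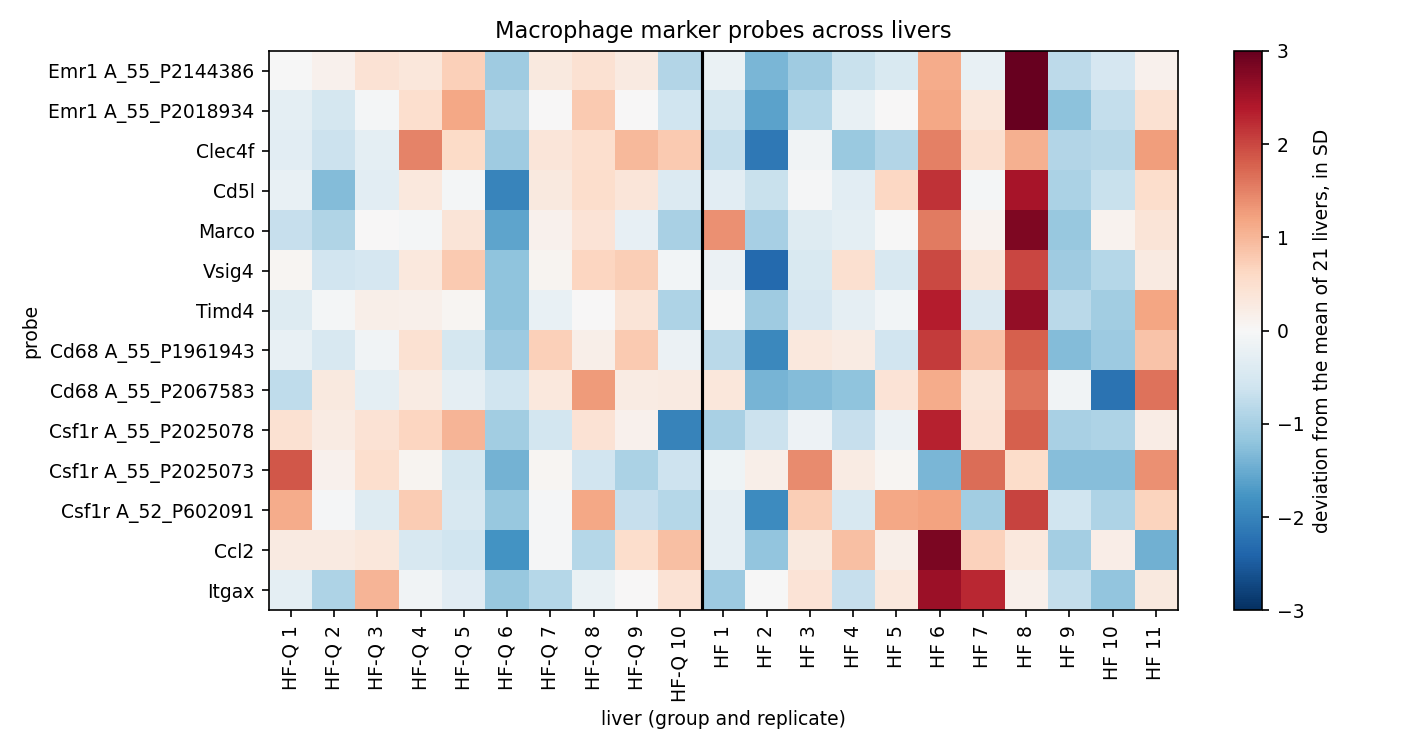
Each marker probe (rows) in each liver (columns, HF-Q left of the black line and HF right), as the deviation of its log2 ratio from the mean of the 21 livers in units of that probe's SD over the 21 livers. HF 6 and HF 8 are high for most probes and HF-Q 6 is low for most, whereas Csf1r A_55_P2025073 departs from this order.

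The spread was larger in HF livers than in HF-Q livers for 14 of 14 marker probes. The SD in HF livers was 1.22 to 2.58 times that in HF-Q livers, with a median of 1.84, against a median of 1.03 over all kept probes, of which 53.1% had the larger SD in HF. The probes share the same livers, so the 14 ratios are not independent. In a comparison added after these values were seen, limma on each liver's absolute deviation from its group median called 0 of 26289 probes (0%), and 877 (3.34%) had an unadjusted p under 0.05. The marker probes among them were both of Cd68, with unadjusted p of 0.0229 and 0.036 and an adjusted p of 0.998. Without HF 6 and HF 8, the SD was larger in HF for 11 of 14 probes, with ratios of 0.58 to 2.09. HF 6 and HF 8 were chosen for high values of these markers, while HF-Q 6 was kept. Leaving them out therefore lowers the SD in HF for most markers by construction. That count was not taken over all kept probes, and the fall in the ratios is not a result.

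The resident genes varied together from liver to liver. After group means were removed, all 15 pairs of resident genes were positively correlated over the 21 livers and passed the threshold (permutation test, 100000 draws, two-sided, Benjamini-Hochberg over 45 pairs of the 10 genes). Pearson's r was 0.626 to 0.903 with a median of 0.821, and Spearman's rho was 0.656 to 0.909. The closest pair was Emr1 and Marco, at r = 0.903 and rho = 0.890 (permutation p = 1e-05 for both, the smallest the draws can give; adjusted p = 4e-05 and 2e-04). Without the 2 livers farthest from the median of Emr1, r was 0.831. Clec4f and Emr1 were the loosest resident pair, at r = 0.626, rho = 0.669 (permutation p = 0.00126 and 0.00134; adjusted p = 0.00218 and 0.00287) and r = 0.558 without the 2 livers farthest from the median. All log2 ratios on an array share its hybridisation and the Cy3 pool, and the correlation of 2 arrays over all kept probes ran from 0.0081 to 0.61.

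At their brightest probes, Cd68 and Csf1r went with the resident genes in all 12 pairs, at a median r of 0.766 and a median rho of 0.703. Vsig4 and Cd68 were the closest of these, at r = 0.887 and rho = 0.796 (permutation p = 1e-05 and 2e-05; adjusted p = 4e-05 and 2e-04), and r = 0.820 without the 2 livers farthest from the median. Csf1r A_55_P2025073 did not go with them, at r = 0.106 with Clec4f, 0.0973 with Cd5l and 0.0411 with Marco. Csf1r A_52_P602091 had r of 0.547, 0.740 and 0.615 with the same genes. Ccl2 and Itgax had lower correlations with the resident genes, at a median r of 0.414 and a median rho of 0.298, and 4 of 12 pairs passed by r and 2 by rho. The difference between these correlations was not tested. Itgax was dim, with Cy5 signals of 108 to 221, and the part of dimness in its lower r was not tested. Marco and Itgax had the lowest r of all 45 pairs, at 0.247 (rho = 0.223; permutation p = 0.277 and 0.331; adjusted p = 0.277 and 0.354), and 0.118 without 2 livers. Ccl2 and Itgax were correlated with each other at r = 0.575 and rho = 0.497 (permutation p = 0.00716 and 0.0233; adjusted p = 0.0104 and 0.0314), and r was 0.291 without the 2 livers farthest from the median of Ccl2, a value that was not tested. Of all 45 pairs, 36 passed by r and 34 by rho, and 38 passed by r with slide means removed as well. Without HF 6 and HF 8, 20 pairs passed by r. Both livers were chosen for high values of most of these genes, so leaving them out tends to lower r by construction. Fewer livers also remain, and the drop in pairs passed is not a result.

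**Figure D4:**
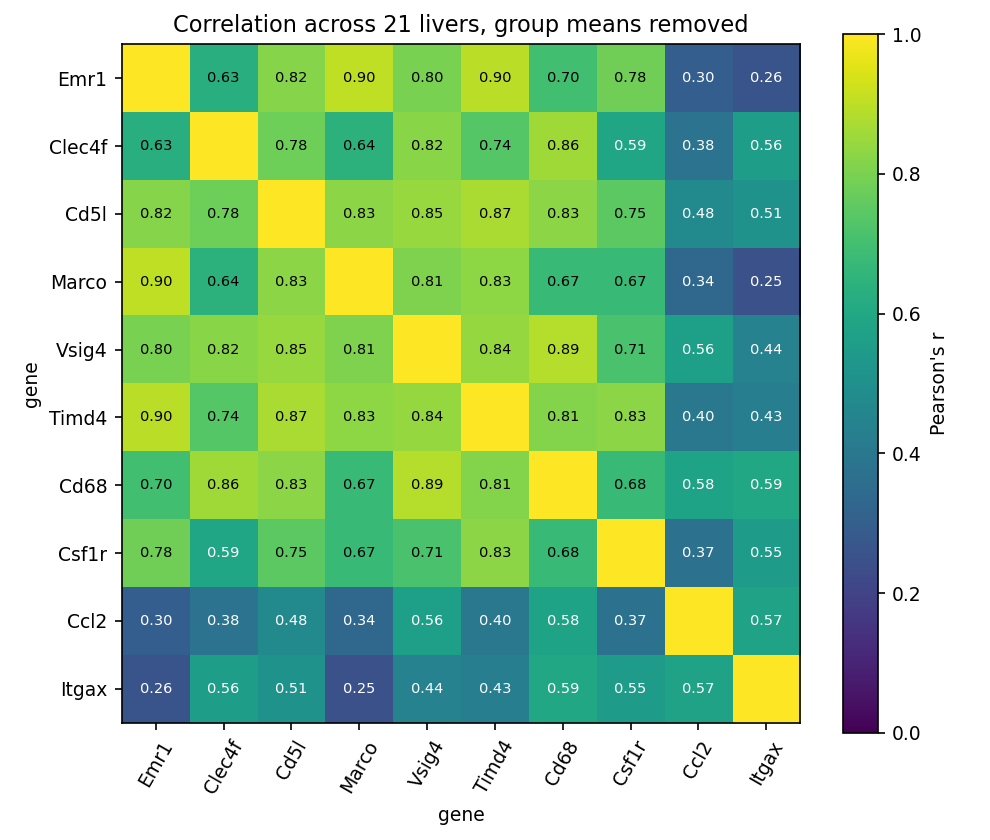
Pearson's r between each pair of the 10 marker genes over the 21 livers, with group means removed and the brightest probe of each gene; the colour scale and the printed values both give r. The block of resident and general markers holds values from 0.59 to 0.90, and the rows of Ccl2 and Itgax hold values from 0.25 to 0.59.

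By the same measure, Pearson's r of group-centred log2 ratios over 21 livers, the probes most like Clec4f were those of C1qc (0.936), P2ry13 (0.916), C1qa (0.914), Cd48 (0.880) and Il2rg (0.880), where the median of all other kept probes was -0.022. C1qa and C1qc encode chains of complement C1q, and P2ry13 encodes a receptor for ADP. For Cd5l they were Pirb (0.920), Gm14548 (0.908), Lrrc25 (0.884) and Cfp (0.878), with 1 further probe whose array name is not a current symbol. Cfp encodes properdin, a stabiliser of the complement convertase, and Pirb belongs to a receptor family of near-identical sequences whose probes can share signal. For Cd68 they were Ncf4 (0.919), C1qa (0.916), Fcer1g (0.914), Sh3bgrl3 (0.912) and C1qc (0.912). Marco, added after its values were seen, was most like Pigz (0.912), Cfp (0.906) and Emr1 (0.903).

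The letters around the start are shown for the marker genes whose promoter holds the PU.1 core. Any link between this motif and the shared variation of the markers was not tested. RefSeq promoters on GRCm38.p6, from 250 bases before to 50 bases after the start, were found for 7 of the 10 genes, Clec4f, Cd5l, Marco, Vsig4, Timd4, Cd68 and Itgax. Capitals mark GAGGAA or its reverse complement TTCCTC, the core bound by PU.1, a transcription factor that all macrophages need.
Cd5l promoter (chr3:87357631-87357930, plus strand): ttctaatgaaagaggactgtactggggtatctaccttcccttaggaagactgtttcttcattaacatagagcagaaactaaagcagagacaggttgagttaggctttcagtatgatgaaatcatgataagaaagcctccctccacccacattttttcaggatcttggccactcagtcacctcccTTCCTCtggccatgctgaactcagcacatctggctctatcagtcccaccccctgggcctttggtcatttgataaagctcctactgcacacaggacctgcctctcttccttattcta
Marco promoter (chr1:120504975-120505274, minus strand): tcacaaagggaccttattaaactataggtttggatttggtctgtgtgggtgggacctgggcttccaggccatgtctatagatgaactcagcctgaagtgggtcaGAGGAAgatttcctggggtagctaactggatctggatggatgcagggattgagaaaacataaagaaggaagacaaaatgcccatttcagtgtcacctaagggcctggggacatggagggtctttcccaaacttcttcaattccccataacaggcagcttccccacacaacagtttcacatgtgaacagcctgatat
Vsig4 promoter (chrX:96293389-96293688, minus strand): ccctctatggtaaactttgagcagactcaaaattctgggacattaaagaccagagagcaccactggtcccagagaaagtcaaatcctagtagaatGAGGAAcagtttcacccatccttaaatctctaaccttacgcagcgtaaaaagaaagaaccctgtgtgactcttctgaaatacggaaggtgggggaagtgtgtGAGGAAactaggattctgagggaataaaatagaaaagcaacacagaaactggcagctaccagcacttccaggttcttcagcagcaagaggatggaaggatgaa
Cd68 promoter (chr11:69666121-69666420, minus strand): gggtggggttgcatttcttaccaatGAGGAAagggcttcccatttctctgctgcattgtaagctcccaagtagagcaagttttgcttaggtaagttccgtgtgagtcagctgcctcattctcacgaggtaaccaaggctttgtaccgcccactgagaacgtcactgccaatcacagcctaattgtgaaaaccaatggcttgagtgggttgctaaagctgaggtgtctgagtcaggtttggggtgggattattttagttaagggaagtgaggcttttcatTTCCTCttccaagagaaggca
The motif was in 4 of the 7 promoters and in 28.3% of all 32851 promoters of the same length. TGCTGA or TCAGCA, the MAF half-site, was in 4 of the 7 and in 19.5% of all, and TATAAA or TTTATA, the TATA box, in 0 of the 7 and in 13.6% of all. Both strands were searched in each case. Cd5l, Marco, Vsig4 and Cd68 hold the first motif, while Clec4f, Timd4 and Itgax do not. A match is a description of the letters and not evidence of binding.

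Lists of other genes of the same cells held no called gene, as limma called 0 of all 26289 kept probes (0%). Of 15 measured Kupffer cell genes beyond the 10 markers (16 listed), 8 had positive and 7 negative differences, with a median of 0.0037 (11 and 4, median 0.040, without HF 6 and HF 8). Of these, Cd38, an ectoenzyme that consumes NAD, had the lowest p: its log2 ratio averaged 0.014 ± 0.15 in HF-Q livers and -0.19 ± 0.16 in HF livers (SD), a difference of 0.20 ± 0.065 (SE; limma unadjusted p = 0.00452, adjusted p = 0.812). It was the 1 gene of the 15 with an unadjusted p under 0.05, against 5.65% of all kept probes by limma, which is near the background. Hmox1, which degrades heme, differed by -0.14 ± 0.073, the ficolin gene Fcna by 0.11 ± 0.061 and the iron exporter gene Slc40a1 by -0.17 ± 0.11 (SE), and none passed.

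Of 19 measured macrophage and myeloid genes (20 listed), 8 had positive and 11 negative differences, with a median of -0.011 (13 and 6, median 0.068, without HF 6 and HF 8). Fcgr1, the high-affinity IgG receptor, averaged -0.039 ± 0.081 in HF-Q livers and -0.20 ± 0.16 in HF livers (SD), a difference of 0.16 ± 0.056 (SE; limma unadjusted p = 0.00748, adjusted p = 0.812). The tetraspanin gene Cd53 differed by 0.15 ± 0.076, the IgG receptor gene Fcgr3 by 0.090 ± 0.061 and Mpeg1, a pore-forming protein of phagocytes, by -0.12 ± 0.083, and none passed.

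Of 15 measured genes of recruited or lipid-associated macrophages and their chemokines (19 listed), 2 had positive and 13 negative differences, with a median of -0.039. By limma, 0 of them had an unadjusted p under 0.05, against 5.65% of all kept probes. Of all kept probes 47.6% had a positive difference, and without HF 6 and HF 8 the list had 6 positive and 9 negative differences, with a median of -0.015. Those of lowest p were the galectin gene Lgals3 at -0.12 ± 0.082, the monocyte surface gene Ly6c1 at -0.16 ± 0.12, and the chemokine genes Ccl4 at -0.083 ± 0.074 and Ccl5 at -0.13 ± 0.12 (SE). These genes share the same livers, and HF 6 had the highest list mean of the 21, at 0.27. Of 9 measured cytokine, adhesion and Toll-like receptor genes (15 listed), 3 had positive and 6 negative differences, with a median of -0.050 (6 and 3, median 0.016, without HF 6 and HF 8). Here too 0 had an unadjusted p under 0.05 by limma, against 5.65% of all kept probes. Nos2, the inducible nitric oxide synthase, differed by 0.063 ± 0.041, Il18 by -0.066 ± 0.046, Tlr2 by -0.076 ± 0.075 and Icam1 by -0.050 ± 0.059.

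HF 6 and HF 8 were also high in some lists of other cells, and not in others. The mean of the other Kupffer cell genes was highest in HF 6 (0.21) and HF 8 (0.19), and that of the other macrophage genes in HF 8 (0.25) and HF 6 (0.24). The mean of 3 of 4 B cell markers measured was 0.27 in HF 6 and 0.15 in HF 8, ranks 1 and 3 of 21, over a range of -0.17 to 0.11 in HF-Q livers and -0.44 to 0.27 in HF livers. For 5 of 8 T and NK cell markers measured it was 0.14 and 0.13, again ranks 1 and 3. The mean of the 7 hepatocyte markers ranked 18 of 21 in HF 6 (-0.0022) and 17 in HF 8 (0.027), though Alb was 0.859 and Hnf4a 0.014 in HF 6, above the HF means of 0.73 and -0.15. Dendritic cell markers, of which 6 of 7 were measured, had a mean of 0.29 in HF 6, the highest of 21, and -0.067 in HF 8. The sinusoidal endothelial list ranked 1 in HF 6 and 9 in HF 8, and the stellate cell list 3 in HF 6 and 15 in HF 8. Lists of cholangiocytes (ranks 18 and 20) and of red blood cells (ranks 17 and 19) were low in both. The mean of 6 of 7 neutrophil markers was below the pool in every liver, at -0.58 to -0.36 in HF-Q livers and -0.755 to -0.41 in HF livers. Dye and level cannot be told apart in that position. S100a9 averaged -1.36 in HF-Q livers and -1.59 in HF livers and S100a8 -1.13 and -1.34 in the same order, while Ly6g averaged 0.027 and 0.091 and Csf3r 0.013 and 0.041. Pancreatic acinar markers set other livers apart, at 2.04 in HF 11 and 1.42 in HF 5, and were below the pool in HF 6 (-0.82) and HF 8 (-0.76). The part of these other cells in the marker values was not tested.

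**Figure D5:**
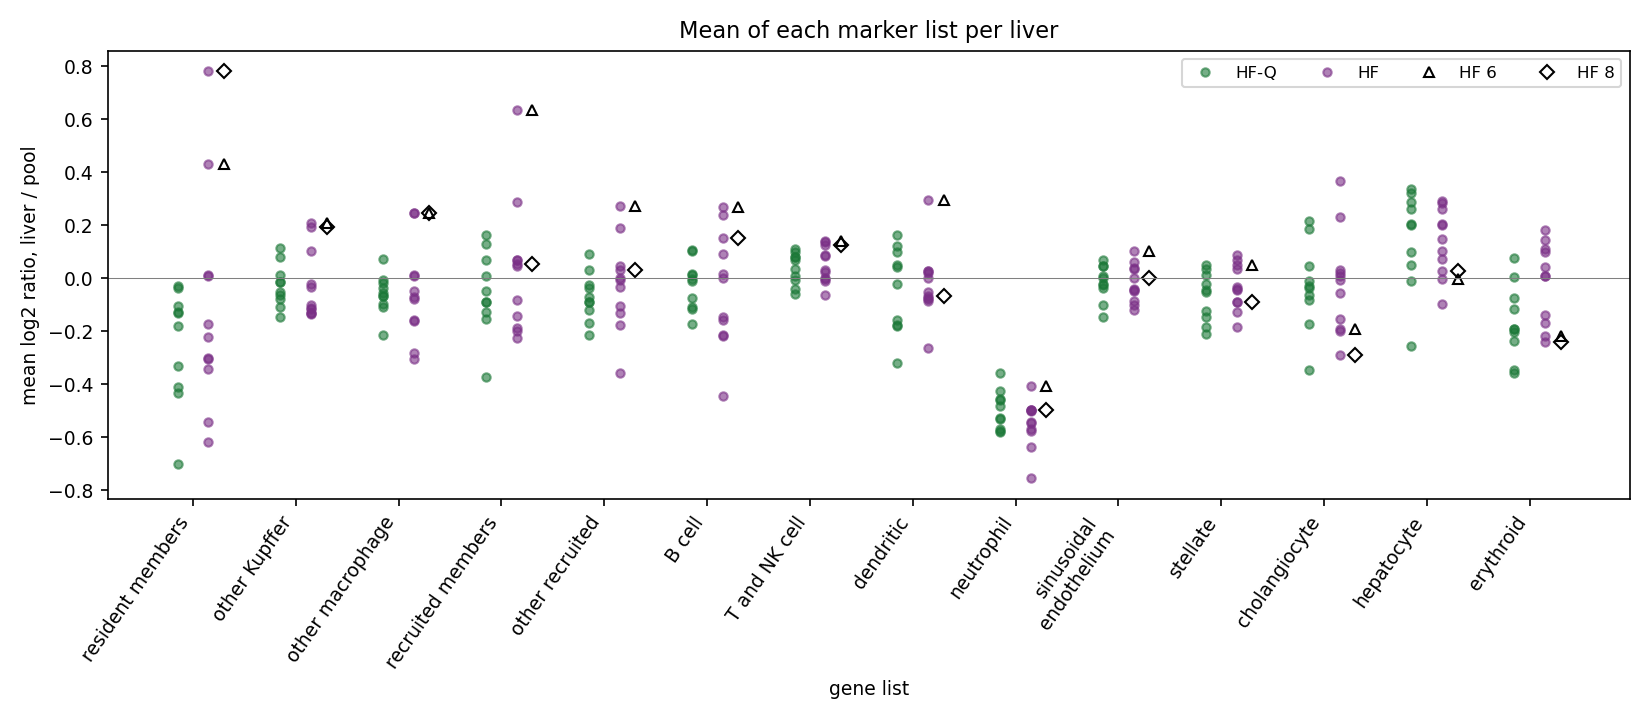
Mean log2 ratio to the pool of each marker list in each liver, with HF-Q livers left of HF livers in each pair and HF 6 and HF 8 marked by an open triangle and an open diamond. Both marked livers are at the top for the resident members and the other Kupffer cell and macrophage lists, and HF 6 alone is at the top for the recruited members.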

How the data were processed

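Scanner files were deposited, 1 per array, made with Agilent Feature Extraction 10.7.3.1 per the submitters' processing notes. The deposited mean and background intensity of each spot are not normalized, per the file headers. A deposited table of log2 values (every column's median 7.92, by a step not given in the sources used here) tracked log2 Cy5 at r = 0.985 to 0.999 and served as an alternative.

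Of 62976 spots per array 3671 were controls. Background was corrected by normexp (offset 50, which draws dim probes toward 0), and log ratios were loess-normalized with control and flagged spots at weight 0 (limma 3.58.1, R 4.3.3). Spots of a probe were averaged. Probes well above background in Cy5 on at least 10 of 21 arrays were kept (26289). Diets were compared, HF-Q minus HF, by limma's moderated two-sided test at a threshold of 0.05 with Benjamini-Hochberg adjustment over kept probes. The fit was tested on simulated data.

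Genes beyond the 10 markers were named as the 4 of lowest p per list of macrophage genes, or as the 5 most correlated probes of Clec4f, Cd5l and Cd68. The brightest probe stood for a gene in lists and correlations. The markers, lists and tests were chosen with earlier results of these data known. Slides 1, 2 and 3 held 4, 2 and 4 HF-Q arrays and 3, 4 and 4 HF arrays. Replicate numbers did not pair the groups (10 pairs, r of -0.32 to 0.16). The number of arrays limits the precision. Alternatives changed background, normalization, filter, variance model, weights, slide, row, replicate block and the livers included.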

Additional observations from a re-analysis of the deposited data

How the results depend on the processing

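Under 19 other settings of the fit and the 21 fits without 1 liver, no marker probe passed the threshold. The count of probes called, 0 of 26289, became 1 with array weights, 1 on slide 2 alone and 0 to 1 without single livers (1 without HF-Q 10). It stayed 0 with the replicate block, which changed no marker's call and gave Marco -0.685. The median difference of resident members turned to 0.00291 on slide 2 alone and ran from -0.0799 to 0.00365 without single livers, the highest without HF 8. Small differences turned sign. Median centring gave 0.0244 for Cd68 A_55_P1961943, 0.0493 for Csf1r A_55_P2025078 and 0.00797 for Csf1r A_55_P2025073. Scaling between arrays gave -0.000261 for Emr1 A_55_P2018934 and -0.0144 for Vsig4. Cy5 alone gave -0.000384 for Cd68 A_55_P2067583 and 0.000418, 0.00184 and 0.0101 for Csf1r A_55_P2025078, A_55_P2025073 and A_52_P602091. The deposited values gave -0.00146 for Cd68 A_55_P2067583, 0.00234 for Csf1r A_55_P2025078 and 0.0152 for Csf1r A_52_P602091. For Csf1r A_55_P2025078, array weights gave 0.0169 and the slide block 0.00298. Slide 1 alone gave -0.0647 for Emr1 A_55_P2018934, -0.00403 for Vsig4, -0.0534 for Cd68 A_55_P2067583, 0.0951 for Ccl2, -0.0599 for Fcna, -0.0572 for Fcgr3 and 0.0759 for Ly6c1. Slide 2 alone gave -0.0451 for Cd68 A_55_P2067583, 0.168, 0.108 and 0.0851 for the Csf1r probes in the order above, and 0.0147 for Ccl4. Slide 3 alone gave -0.0507 for Emr1 A_55_P2018934, -0.00161 for Vsig4, 0.149 for Csf1r A_52_P602091 and 0.0244 for Icam1. Without HF 6 and HF 8, a choice made after seeing the data, Timd4 was 0.0344, Cd68 A_55_P1961943 0.0489, Csf1r A_55_P2025078 0.0786, Csf1r A_52_P602091 0.0435, Ccl2 0.0114 and Tlr2 0.0108. In that setting 20 of 45 correlations passed in place of 36, and the choice of livers tends to lower r by construction. Without HF 5 and HF 11, also chosen later, Csf1r A_52_P602091 was 0.0151. Without single livers, Emr1 A_55_P2144386 ran from -0.00123 to 0.154, Emr1 A_55_P2018934 from -0.033 to 0.0934, Vsig4 from -0.0285 to 0.0425, Cd68 A_55_P1961943 from -0.0423 to 0.0168, Cd68 A_55_P2067583 from -0.0117 to 0.0474, Csf1r A_55_P2025078 from -0.0323 to 0.035 and Csf1r A_52_P602091 from -0.0558 to 0.0161. The cause of these turns was not tested. Clec4f, Cd5l, Marco and Itgax kept their sign in all settings and fits run, Marco between -0.843 and -0.265. Some differences were larger with the scanner's processed signals, at -0.392 for Ccl4, -0.137 for Itgax, 0.356 for Fcgr1 and 0.304 for Cd53. Others changed little, such as Cd38 at 0.19. The recruited median was -0.123 and the resident median -0.0551 in that setting. The dimmest marker probe, Cd68 A_55_P2067583, had Cy5 signals of 88.0 to 163 against array backgrounds of 33 to 36.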
